A study of Macaca mulatta with 12 samples.

Results

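A list of 40 oligodendrocyte and myelin genes was followed in RNA from the dorsal raphe, a midbrain nucleus known for its serotonin neurons. The members were chosen by name, with earlier results of these data known, so their counts describe the list and are no independent test. Of the 40 genes, 26 were among the 14132 genes that the probe-to-gene table names on the array. MOBP, CLDN11, MOG, MAG, OPALIN, ERMN, SIRT2, FA2H, OLIG1, NKX2-2, NKX6-2, PDGFRA, TF and QDPR have no entry there and were not analysed here. Of the 26 genes, 24 were bright enough to be tested. CNTF, a trophic factor, and GJC3, a gap junction protein of myelinating glia, had mean log2 intensities of 6.20 and 5.89, below the filter at 6.31, and enter no count of the comparisons below.

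Oligodendrocytes wrap axons of the central nervous system in myelin, a stack of membrane rich in galactolipid and in a few very abundant proteins. Their precursors mature under the control of transcription factors such as OLIG2, SOX10 and MYRF, and mature cells turn on genes for compact myelin, for the contact of myelin with the axon and for myelin lipid. In a block of brainstem, RNA of these cells also follows how much white matter the block holds.

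RNA was hybridised to 12 Affymetrix rhesus arrays, each from 1 female rhesus monkey, with 3 animals in each of 4 groups. The groups were placebo, estrogen, progesterone and estrogen plus progesterone, given for 1 month as Silastic capsules under the skin; the labels speak of crystalline steroid for every array and do not say what the placebo capsules held. Ages are not in the labels used here. Placebo arrays have OVX in their titles, which was read as ovariectomized; for the treated animals the labels used here give no ovarian state. Progesterone arrays have EP in their titles but P in their descriptions, and were treated as progesterone without estrogen. Median intensity per array lay between 71.1 and 98.6, and the serotonin neuron genes SLC18A2 and FEV, at mean log2 intensities of 10.12 and 9.47, were present in the blocks. Other genes of these neurons ran lower. GATA3 and TPH2 had means of 9.31 and 7.31, with TPH2 at 4.66 on the third progesterone array. HTR1A and LMX1B, at 5.07 and 3.75, were below the filter. The first arrays of placebo, estrogen and estrogen plus progesterone stood apart from the other 9 arrays on the first principal component, at -51.6, -44.9 and -44.0 against -1.64 to 29.0.

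Values are quantile-normalized log2 intensity of the brightest probe set of each gene, and since probe sets differ in how strongly they bind, levels of different genes are not set against each other. MBP, a main protein of compact myelin, was among the brightest probe sets of the array, with a mean of 13.44. It ranked between 3 and 7 of 52766 probe sets on every array, so quantile normalization gave it almost the same value on each, from 13.36 to 13.52 (SD 0.04 over 12 arrays). As deposited, MBP ran from an intensity of 7501 on the third progesterone array to 16710 on the first estrogen plus progesterone array, with a median of 11160. MBP therefore shows a spread only on the other scalings, and under median alignment its SD was 0.33. Since its rank hardly moved, this spread cannot be told apart from a shift of the brightest probe sets of an array. The differences from placebo were then 0.20 for estrogen, 0.36 for both hormones and -0.19 for progesterone. A second, dimmer MBP probe set (mean 12.86) had the opposite signs after quantile normalization, at -0.08, -0.16 and 0.07.

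Among the other 23 tested genes, mean log2 intensity ran from 7.10 for GPR17, a receptor of cells that are about to mature, to 12.34 for CNP, an enzyme of the non-compact myelin. The highest mean among 23 control probe sets (Tag and TrpnX) was 6.41. The transcription factors OLIG2, MYRF and SOX10 had means of 10.37, 10.25 and 9.99. The spread between animals of a group was ordinary: the pooled SD within groups had a median of 0.27 over the 24 genes, from 0.04 for MBP to 0.50 for ENPP6, against 0.28 over all 26383 probe sets tested.

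**Figure D1:**
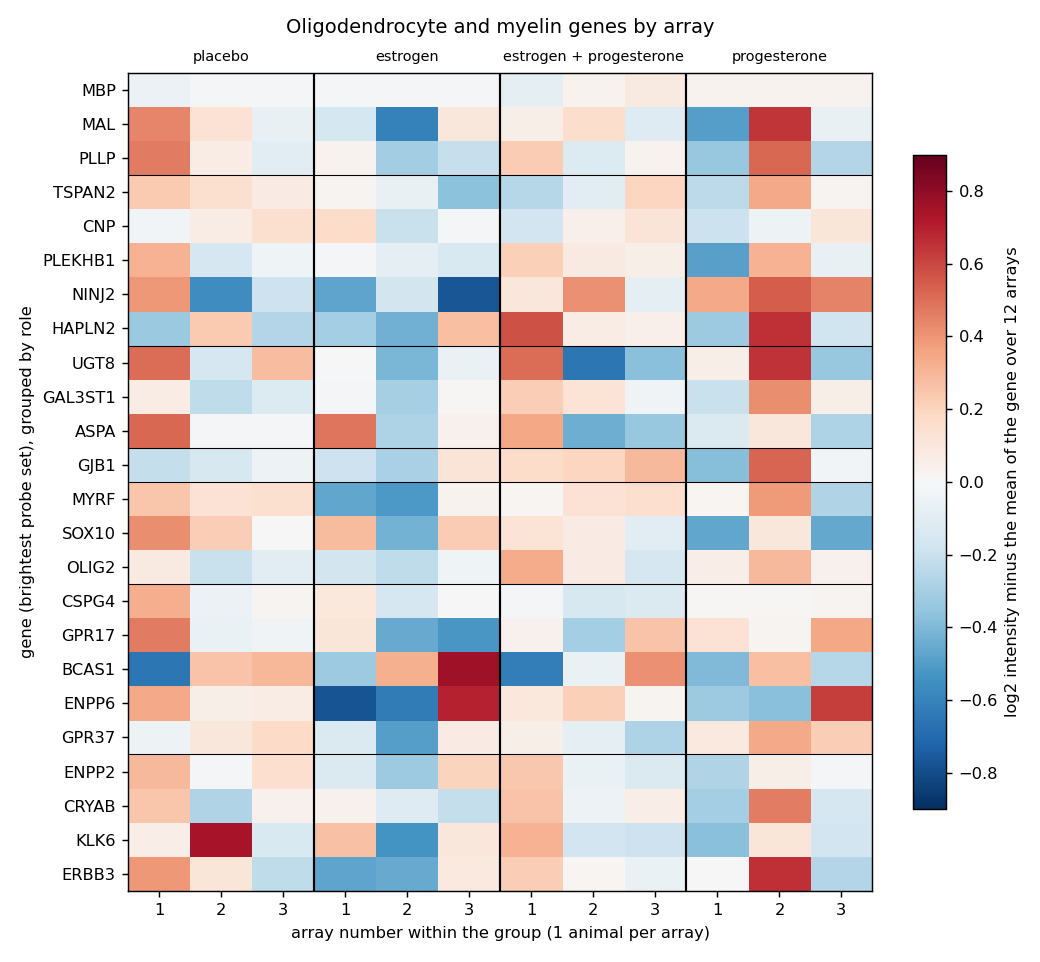
Log2 intensity of the 24 tested genes (rows, grouped by role) minus the mean of each gene over 12 arrays, by array (columns, in 4 groups of 3). Blue runs down the column of the second estrogen array, which lay below the mean for 23 of 24 genes, and red down that of the second progesterone array, the highest of the 12 for 12 genes.

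The arrays at either extreme for these genes were single animals of 2 treated groups, and the groups overlapped. The level of an array was taken as the median, over the 24 genes, of the log2 value minus the mean of the gene over 12 arrays. It was 0.27, 0.02 and -0.01 under placebo, -0.01, -0.31 and 0.02 under estrogen, 0.14, 0.02 and 0.00 under both hormones, and -0.22, 0.33 and -0.04 under progesterone. The lowest array was the second of the estrogen group and the highest the second of the progesterone group. Group means were 0.09 ± 0.15 (SD, n = 3) for placebo, -0.10 ± 0.18 for estrogen, 0.05 ± 0.08 for both hormones and 0.02 ± 0.28 for progesterone. The widest gap between group means, placebo against estrogen, was close to the pooled SD within groups, 0.19. In bulk tissue, fewer oligodendrocytes and less of their RNA per cell cannot be told apart.

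The counts of single genes named the same arrays. The second estrogen array was the lowest of the 12 for 10 of 24 genes, where it was lowest for 6.29% of all probe sets tested. It lay below the mean of the gene for 23 of 24 genes, against 46.8% of all probe sets. The second progesterone array was the highest for 12 of 24, against 10.9% of all probe sets, and the first progesterone array was the lowest for 5, against 9.14%. The first placebo array was the highest for 6, against 11.6%. The counts of lowest arrays depend on the scaling. The second estrogen array was the lowest for 7 of 24 on the deposited scale and for 1 of 24 under median alignment, where the third progesterone array was the lowest for 13 of 24 (26.2% of all probe sets) and the first for 0. The second progesterone array was the highest for 13 and 10 of 24 on those 2 scales.

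Other oligodendrocyte genes that are no members followed the same arrays. Of a list of 30 such genes 15 were tested, and their brightest were PPP1R14A, ANLN and UGP2. Their level was lowest in the second estrogen array (-0.34) and highest in the second progesterone array (0.37) after quantile normalization, but lowest in the third progesterone array (-0.21) and highest in the third estrogen array (0.33) under median alignment. They differed from the members in the other progesterone arrays, at 0.11 and 0.10 where the members stood at -0.22 and -0.04. The median over all 9959 named genes tested stayed between -0.04 and 0.06 on every array, general neuron genes between -0.22 and 0.13 and astrocyte genes between -0.10 and 0.18.

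Genes of neighbouring tissue were also high or low on some of these arrays. Of 10 listed genes of cerebellar neurons 5 were tested, and PCP2, a marker of Purkinje cells, was below the filter at a mean of 4.23. The level of the 5 genes was 1.16 in the second estrogen array, the highest of the 12, 0.68 in the second estrogen plus progesterone array and -0.44 in the second progesterone array, the lowest. Their summed intensity ran from 987.1 to 1179 under placebo, 1197 to 2642 under estrogen, 1010 to 1957 under both hormones and 918.4 to 1496 under progesterone. The second estrogen plus progesterone array, high for these genes, was near the mean for the members. Microglial genes were highest in the first placebo array, at 0.34, and 10 of 11 were tested; their summed intensity was 4791 to 6709 under placebo, 5109 to 5547 under estrogen, 4496 to 5344 under both hormones and 5038 to 6048 under progesterone. The 2 tested genes of 8 listed for ependyma and choroid plexus were lowest in the second progesterone array, at -1.08, and their summed intensity was 258.9 to 337.1 under placebo, 287.2 to 414.3 under estrogen, 225.5 to 513.1 under both hormones and 139.9 to 354.9 under progesterone. The part of these cells in the members' values was not tested.

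**Figure D2:**
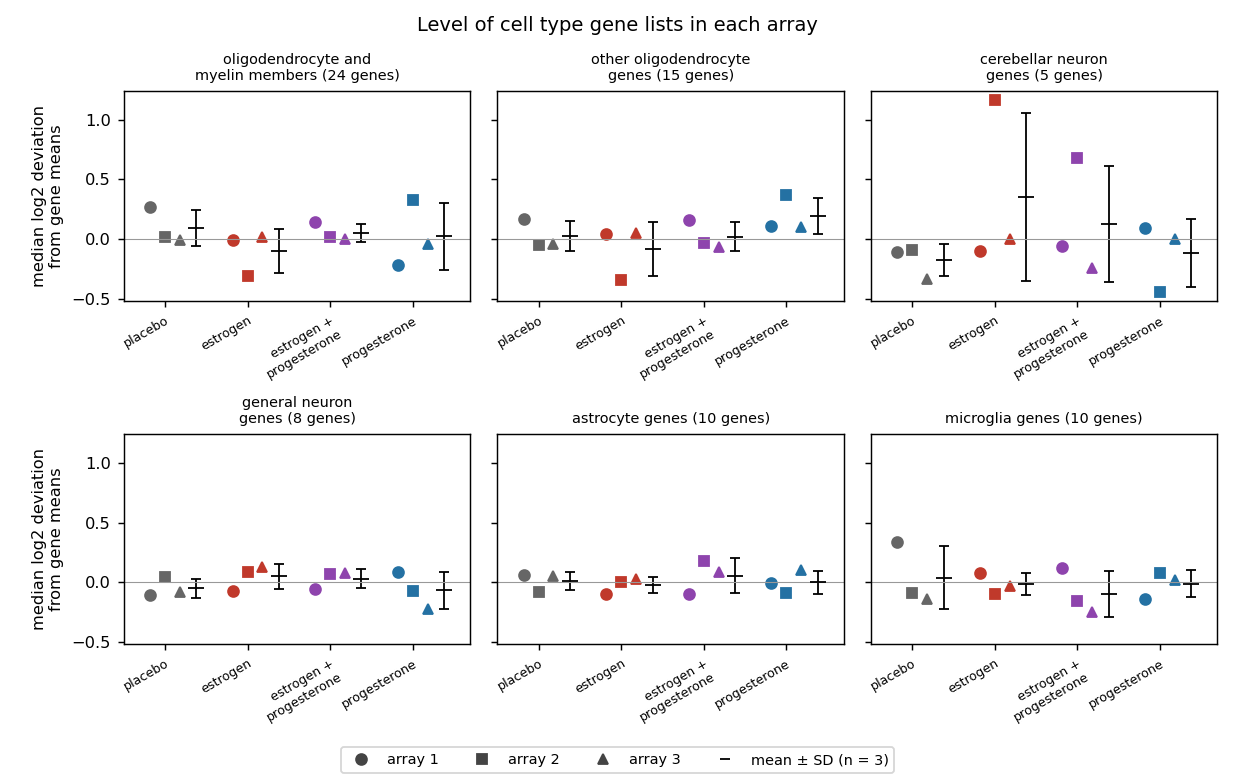
Level of 6 gene lists in each array (median log2 deviation from the gene means over 12 arrays; points are arrays, bars are mean ± SD of 3 animals). The second estrogen array has the lowest value of both oligodendrocyte lists (-0.31 and -0.34) and the highest of the cerebellar list (1.16).

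The level of single arrays also depended on the scaling. Under median alignment the members were lowest in the third progesterone array, at -0.51, and highest in the first placebo array, at 0.31. All named genes moved there too, to -0.26 in the third progesterone array. The members were then set against the 6602 named genes of like brightness (mean log2 intensity 7.65 to 12.17). This subtraction removes any constant shift of an array, so median alignment and the deposited scale, which differ by such a shift, give the same values by construction. The members were lowest in the second estrogen array, at -0.33 under quantile normalization and -0.32 without it. They were highest in the second progesterone array, at 0.32 and 0.35.

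**Figure D3:**
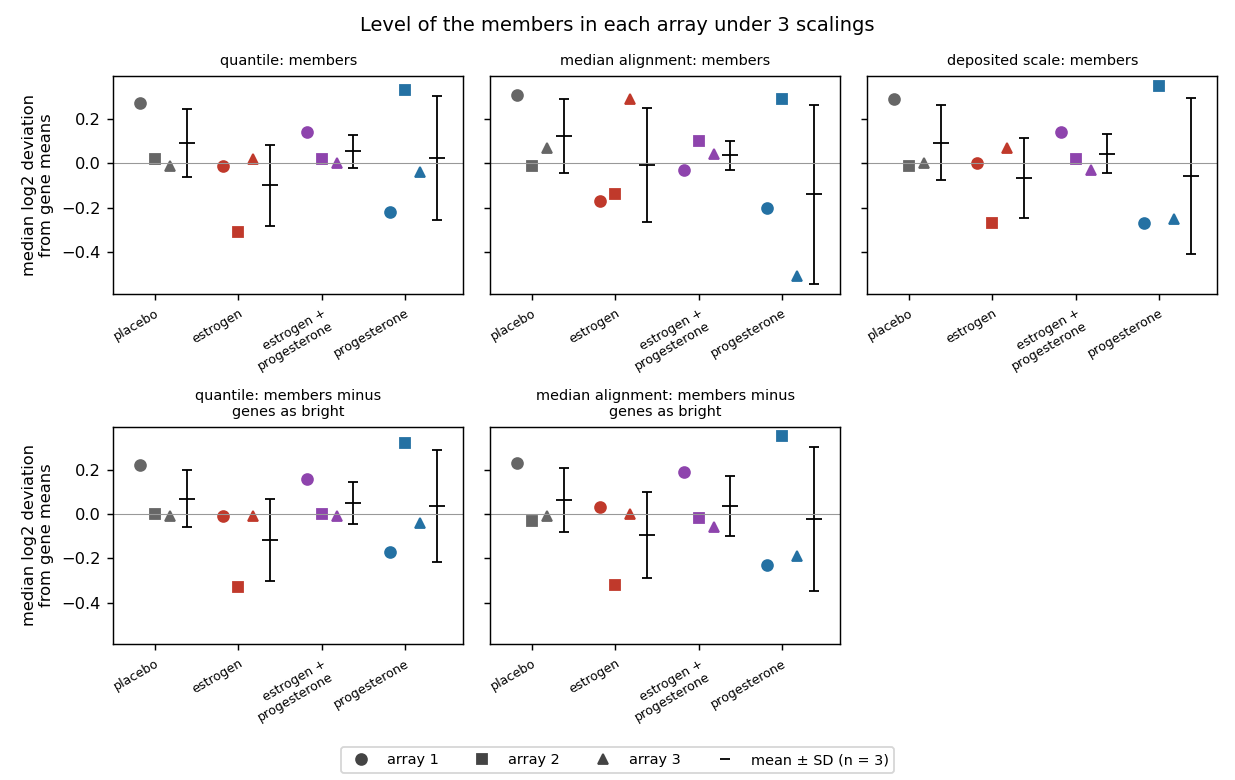
Level of the members in each array (median log2 deviation from the gene means; bars are mean ± SD, n = 3) under 3 scalings (top) and minus the level of named genes as bright (bottom, where the deposited scale is left out because it equals median alignment). The third progesterone array moves from -0.04 to -0.51 between the first and second panels of the top row, while in the bottom row the second estrogen array stays at -0.33 and -0.32.

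Estrogen was compared with placebo to ask what estrogen alone does; differences are the first-named group minus the second. None of the 24 genes passed (0 of 24 at an adjusted p of 0.05 in limma, with Benjamini-Hochberg adjustment over all probe sets tested; 1 at an unadjusted p of 0.05), and of all probe sets 0% passed, with 2.65% at an unadjusted p of 0.05. The mean was lower under estrogen for 21 of the 24 genes, against 51.3% of all probe sets tested, and the median difference was -0.21 on the log2 scale, against -0.01 for all probe sets. Without the second estrogen array 16 of 24 were lower and the median was -0.10, and without the first placebo array it was -0.13. With the level of the other oligodendrocyte genes as a covariate 16 of 24 were lower, with a median of -0.10. The 3′ minus 5′ log2 signal of the EF1A control, a sign of RNA quality, was 0.12 to 0.74 in the estrogen arrays, above all 3 placebo arrays (-0.03 to 0.07). With it as a covariate the median was -0.29, and its part in the estrogen results was not tested further. The same signal of the GAPDH control did not separate these groups. It was 0.81, 0.78 and 0.48 under estrogen and 0.42, 0.50 and 0.48 under placebo. All 3 estrogen arrays lay below all 3 placebo arrays for 2 genes, MYRF and TSPAN2, a tetraspanin of myelin, as for 3.98% of all probe sets, and above them for 0 of 24, as for 3.56%. The TSPAN2 difference was -0.29 on its brightest probe set (mean 7.58). It was 0.16 and 0.27 on its further tested probe sets (means 7.54 and 6.67).

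MYRF, the factor that turns on myelin genes in maturing oligodendrocytes, had the lowest p of the list in this comparison. It measured 10.50, 10.38 and 10.39 under placebo, 9.78, 9.73 and 10.28 under estrogen, 10.27, 10.38 and 10.40 under both hormones, and 10.27, 10.63 and 9.98 under progesterone. The first and second estrogen arrays were below every other array, while the third lay within the range of both hormones. The difference from placebo was -0.49 ± 0.19 (SE; 95% confidence interval -0.92 to -0.07; limma adjusted p = 0.9997). It ran from -0.67 to -0.39 as single arrays were left out, and was -0.41 ± 0.18 with the level of the other oligodendrocyte genes as a covariate. A second, dimmer MYRF probe set (mean 7.60) gave 0.01, and its deviations from the group means had an r of -0.30 with those of the first over 12 arrays. That probe set was higher with both hormones, by 0.54 against placebo, 0.53 against estrogen and 0.79 against progesterone (SE 0.23 each). The brightest gave -0.07, 0.42 and 0.05 there. None of these passed in limma.

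MAL, PLLP and ENPP2 shared the low second estrogen array. MAL, a proteolipid of compact myelin, measured 10.83, 10.52 and 10.32 under placebo, 10.23, 9.78 and 10.49 under estrogen, 10.44, 10.55 and 10.27 under both hormones, and 9.89, 11.03 and 10.32 under progesterone. Its difference between estrogen and placebo was -0.39 ± 0.28 (SE), and the groups overlapped. It was -0.19 without the second estrogen array and -0.25 without the first placebo array. PLLP, plasmolipin, another proteolipid of myelin, measured 11.58, 11.18 and 11.01 under placebo, 11.14, 10.80 and 10.90 under estrogen, 11.34, 10.99 and 11.14 under both hormones, and 10.77, 11.63 and 10.85 under progesterone. The second progesterone array was the highest of the 12 for both genes. PLLP differed by -0.31 ± 0.24 between estrogen and placebo, by -0.15 without the first placebo array and by -0.47 with the EF1A covariate. ENPP2, the secreted enzyme autotaxin that makes lysophosphatidic acid, measured 11.99, 11.68 and 11.85 under placebo, 11.57, 11.37 and 11.90 under estrogen, 11.94, 11.64 and 11.57 under both hormones, and 11.43, 11.75 and 11.68 under progesterone. Its difference was -0.23 ± 0.18, and the third estrogen array was as high as placebo. It was -0.11 without the second estrogen array, -0.15 without the first placebo array, and -0.37 when the third estrogen array was left out.

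**Figure D4:**
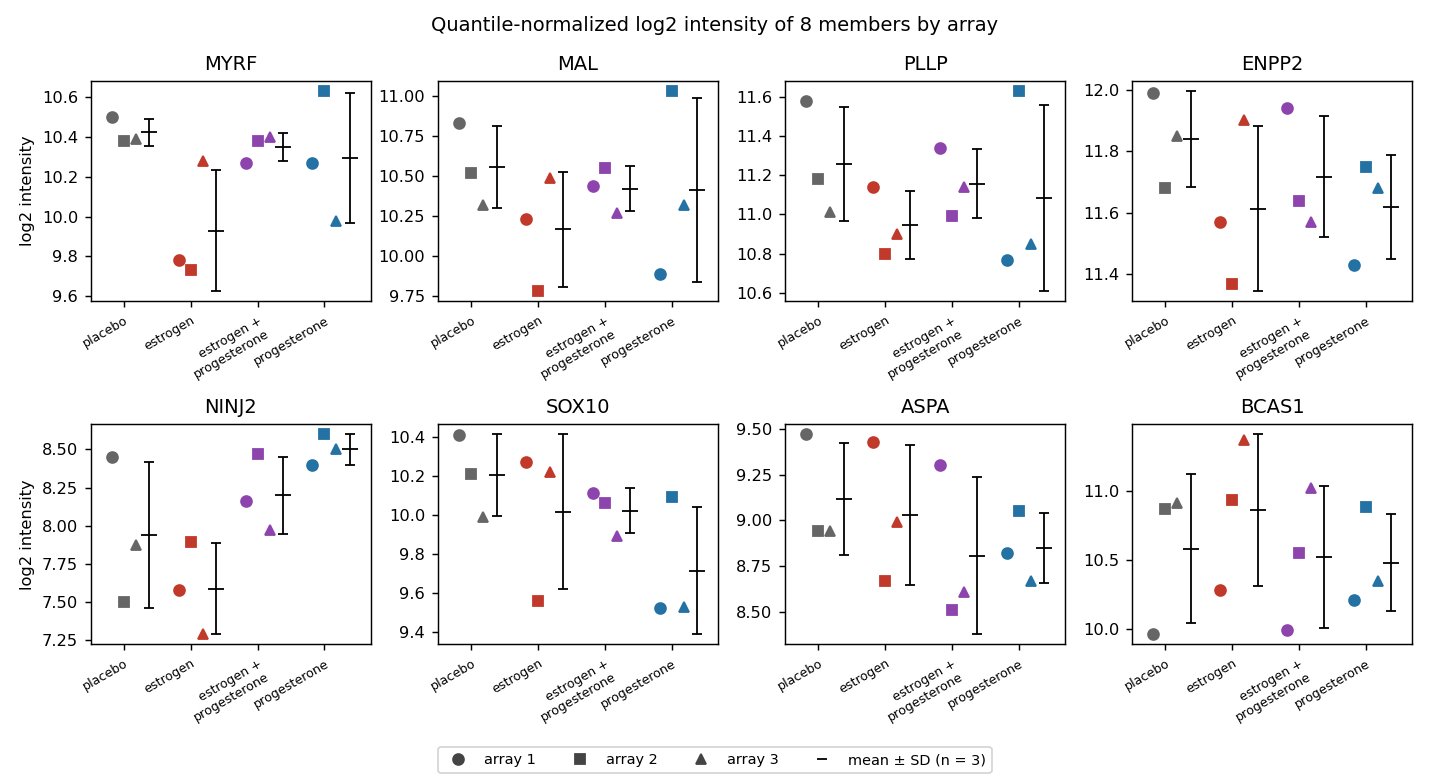
Quantile-normalized log2 intensity of 8 genes by array (points, shaped by array number; bars are mean ± SD, n = 3; each panel has its own axis). The estrogen arrays of MYRF reach from 9.73 to 10.28, and the progesterone arrays of NINJ2 lie between 8.40 and 8.60, above all 3 estrogen arrays.

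For the brightest genes of 3 other roles the estrogen and placebo arrays overlapped. CNP measured 12.32, 12.41 and 12.49 under placebo, 12.51, 12.14 and 12.33 under estrogen, 12.17, 12.39 and 12.46 under both hormones, and 12.15, 12.30 and 12.45 under progesterone. UGT8, the enzyme that makes the galactolipid of myelin, measured 11.70, 11.05 and 11.48 under placebo, 11.20, 10.79 and 11.14 under estrogen, 11.70, 10.55 and 10.82 under both hormones, and 11.25, 11.85 and 10.86 under progesterone. CRYAB, a small heat shock protein abundant in oligodendrocytes, measured 12.37, 11.85 and 12.16 under placebo, 12.16, 12.01 and 11.91 under estrogen, 12.38, 12.08 and 12.18 under both hormones, and 11.82, 12.58 and 11.97 under progesterone. BCAS1, a marker of oligodendrocytes that are beginning to form myelin, had the largest positive difference, 0.28 ± 0.36 (SE; limma adjusted p = 0.9997). It measured 9.96, 10.87 and 10.91 under placebo, 10.28, 10.93 and 11.37 under estrogen, 9.99, 10.55 and 11.02 under both hormones, and 10.21, 10.88 and 10.35 under progesterone. The first array was the lowest of each group, and without the first placebo array the difference was -0.03. It was 0.02 without the third estrogen array, 0.57 without the first and 0.67 with the EF1A covariate.

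Estrogen plus progesterone was compared with placebo to ask what both hormones do together, against the same 3 placebo animals. Again 0 of 24 genes passed in limma (0 at an unadjusted p of 0.05), where 0% of all probe sets did and 3.85% had an unadjusted p under 0.05. The mean was lower for 16 of 24, against 52.1% of all, with a median difference of -0.07 against -0.01, and 0.01 without the first placebo array. GJB1, connexin 32 of the gap junctions of oligodendrocytes, was the 1 gene whose 3 arrays lay above all 3 placebo arrays, as 4.68% of all probe sets did, and 0 of 24 lay below, against 5.84%. It measured 9.78, 9.85 and 9.95 under placebo, 9.81, 9.70 and 10.11 under estrogen, 10.16, 10.19 and 10.29 under both hormones, and 9.61, 10.52 and 9.97 under progesterone. The difference was 0.35 ± 0.21 (SE; limma adjusted p = 0.9988). CSPG4, the NG2 proteoglycan of precursors, had the lowest p among lower genes, at -0.20 ± 0.14 (limma adjusted p = 0.9988). It measured 8.13, 7.75 and 7.83 under placebo, 7.90, 7.65 and 7.80 under estrogen, 7.79, 7.66 and 7.67 under both hormones, and 7.81, 7.81 and 7.83 under progesterone, with the first placebo array alone above 7.90. Without that array the difference was -0.08.

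Progesterone was compared with placebo in the same way. In limma 0 of 24 genes passed (1 at an unadjusted p of 0.05), where 0.133% of all probe sets did, and 9.87% at an unadjusted p of 0.05. The mean was lower for 15 of 24, against 53.3% of all, with a median of -0.09 against -0.02. Under median alignment 19 of 24 were lower (median -0.22 against -0.12 for all), and with the other oligodendrocyte genes as a covariate 18 of 24 (median -0.18). The mean level of those genes was itself 0.19 under progesterone, 0.02 under placebo and under both hormones, and -0.08 under estrogen. A fit with that covariate therefore also takes out their difference between the groups. Without the second progesterone array 18 of 24 were lower and the median was -0.23. It was 0.04 without the first progesterone array, -0.04 without the third and 0.02 without the first placebo array. NINJ2, an adhesion protein of glia, differed by 0.56 ± 0.24 (SE; 95% confidence interval 0.03 to 1.09; limma adjusted p = 0.4783). It measured 8.45, 7.50 and 7.87 under placebo, 7.58, 7.89 and 7.29 under estrogen, 8.16, 8.47 and 7.97 under both hormones, and 8.40, 8.60 and 8.50 under progesterone. The first placebo array reached the progesterone range, so the groups overlapped. The difference was 0.34 without the second placebo array and 0.81 without the first. SOX10, a transcription factor of the whole lineage, differed by -0.49 ± 0.23 (limma adjusted p = 0.5159). It measured 10.41, 10.21 and 9.99 under placebo, 10.27, 9.56 and 10.22 under estrogen, 10.11, 10.06 and 9.89 under both hormones, and 9.52, 10.09 and 9.53 under progesterone. With the other oligodendrocyte genes as a covariate the SOX10 difference was -0.76 (limma adjusted p = 0.1153), and a second, dimmer SOX10 probe set gave -0.09. MBP was the 1 gene with all 3 progesterone arrays above placebo, as in 7.41% of all probe sets (0 of 24 lay below, against 7.86%), but its difference there was 0.05 and became -0.19 under median alignment. The EF1A signal was -0.37 to -0.31 in the progesterone arrays, below all other arrays (-0.08 to 0.74). With it as a covariate the median was 0.00 and the differences of NINJ2 and SOX10 from placebo were 0.51 and -0.38. Since these ranges do not overlap, the EF1A signal and treatment with progesterone alone cannot be told apart in that fit. The part of this signal in the results was not tested further. The GAPDH control's 3′ minus 5′ signal was 0.11, 0.59 and 0.31 in the progesterone arrays, overlapping the other arrays (0.34 to 1.11). Genes of serotonin neurons, of which 4 of 8 listed were tested, were also low in this group, at -0.20, -0.17 and -0.55 on its 3 arrays against -0.16 to 0.30 on the others. Their summed intensity was 1866 to 2323 under progesterone, 2404 to 3473 under placebo, 2660 to 3565 under estrogen and 2412 to 3084 under both hormones. All 4 had a lower mean than under placebo, with a median of -0.47 (0 of 4 passed, lowest limma adjusted p = 0.5368), and TPH2, which marks these cells, had a mean of 7.31. The part of these cells in the members' values was not tested.

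**Figure D5:**
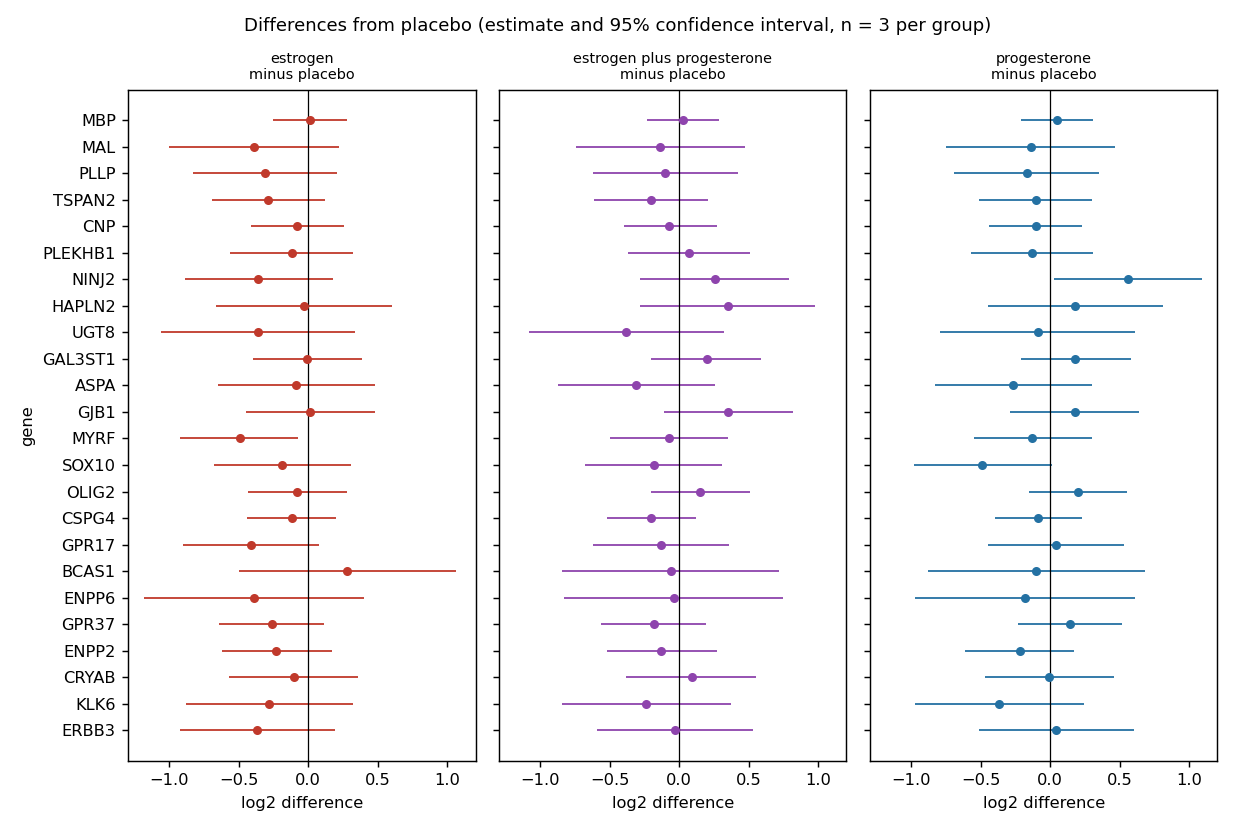
Log2 difference of each of the 24 tested genes from placebo (points) with its 95% confidence interval (lines), for estrogen, estrogen plus progesterone and progesterone, n = 3 per group; the 3 panels share the placebo animals. The intervals of MYRF under estrogen (-0.92 to -0.07) and of NINJ2 under progesterone (0.03 to 1.09) lie on 1 side of 0 before adjustment.

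The hormone groups were then set against each other. Between both hormones and estrogen alone, 0 of 24 genes passed in limma (1 at an unadjusted p of 0.05; of all probe sets 0% passed and 2.98% had an unadjusted p under 0.05), and 20 of 24 had a higher mean with both hormones, where 50.1% of all probe sets had a lower one. The median difference was 0.19 against 0.00 for all, and 0.11 without the second estrogen array, where 9 of 24 were lower. It was also 0.11 without the first array of both hormones, and 0.07 with the other oligodendrocyte genes as a covariate. NINJ2 differed by 0.61 ± 0.24 (SE; limma adjusted p = 0.9999), and PLEKHB1, NINJ2 and GJB1 had 3 arrays above all 3 estrogen arrays, as 4.04% of all probe sets did; 0 of 24 lay below, against 4.05%. The lowest p among lower genes was that of BCAS1, at -0.34 ± 0.36. Leaving out single arrays moved it from -0.63 (the first estrogen array) and -0.59 (the third of both hormones) to -0.08 (the third estrogen array) and -0.07 (the first of both hormones).

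Between both hormones and progesterone alone, 0 of 24 passed (0 at an unadjusted p of 0.05), where 0.0834% of all probe sets did, and 11.4% at an unadjusted p of 0.05. The mean was lower with both for 10 of 24, against 48.9% of all. The median difference was 0.03 against 0.01. Leaving out the second progesterone array gave 0.17, the first -0.07 and the third -0.03; it was -0.01 without the first array of both hormones. Under median alignment 17 of 24 were higher (median 0.15 against 0.07 for all), with the other oligodendrocyte genes as a covariate 17 of 24 (0.20), and with the EF1A covariate the median was -0.06. CSPG4 and GPR37, a receptor of maturing and myelinating oligodendrocytes, lay below all 3 progesterone arrays, as 8.6% of all probe sets did, and 0 of 24 lay above, against 8.4%. GPR37 measured 10.79, 10.94 and 11.01 under placebo, 10.71, 10.34 and 10.91 under estrogen, 10.89, 10.75 and 10.56 under both hormones, and 10.93, 11.18 and 11.06 under progesterone. Its difference was -0.33 ± 0.17 (SE; limma adjusted p = 0.5005), while a second GPR37 probe set (mean 9.12, r = 0.78 with the first over 12 arrays) gave 0.12. The counts use the brightest probe sets. The second, dimmer MYRF probe set gave 0.79 ± 0.23 (limma unadjusted p = 0.00555, adjusted p = 0.2506), where the brightest gave 0.05.

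The contrast of the single hormones held the largest difference of the list. Of 24 genes 0 passed in limma (2 at an unadjusted p of 0.05), where 0.133% of all probe sets did, and 9.85% at an unadjusted p of 0.05. NINJ2 differed between estrogen and progesterone by -0.92 ± 0.24 (SE; 95% confidence interval -1.45 to -0.38; limma adjusted p = 0.239), a ratio of 0.53, and its lowest progesterone array, 8.40, lay above its highest estrogen array, 7.89. The difference ran from -1.07 to -0.77 as single arrays were left out, and the lowest adjusted p under any setting was 0.1181. GPR37 differed by -0.40 ± 0.17 (limma adjusted p = 0.487), and by 0.03 on its second probe set. With MBP and OLIG2 these made 4 genes whose 3 estrogen arrays lay below all 3 progesterone arrays, as 6.65% of all probe sets did, and 0 of 24 lay above, against 7.45%. The MBP difference turned to 0.39 under median alignment. OLIG2, a factor that sets the lineage, measured 10.45, 10.17 and 10.27 under placebo, 10.20, 10.14 and 10.33 under estrogen, 10.70, 10.44 and 10.22 under both hormones, and 10.43, 10.66 and 10.41 under progesterone. The mean was lower under estrogen for 18 of 24 genes, against 48.6% of all, but for 12 of 24 under median alignment and for 12 of 24 without the second progesterone array. The medians were -0.17, 0.00 and 0.01. The median was -0.31 without the first progesterone array, -0.06 without the second estrogen array, -0.29 with the EF1A covariate and 0.11 with the other oligodendrocyte genes as one. Median alignment moved the median of all probe sets in this contrast to 0.13, and in progesterone against placebo to -0.12.

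Over the 4 groups together, the moderated F test of limma called 0 of 24 genes, where it called 0.0758% of all probe sets; 1 of 24 had an unadjusted p under 0.05, against 7.54%. That gene was NINJ2 (limma adjusted p = 0.5475). The test of whether estrogen acts differently with progesterone gave MYRF 0.55 ± 0.27 (SE; limma adjusted p = 0.7826). The 95% confidence interval of a difference, before adjustment, reached a median of 0.48 on the log2 scale to each side. Over the 24 genes it ran from 0.26 to 0.79, with 3 animals a group. These intervals do not give the smallest difference that the adjusted test could call. NINJ2, at -0.92 between estrogen and progesterone, did not pass (limma adjusted p = 0.239), so differences larger than the intervals can also have been missed.

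Animals of 1 group that were high for one of these genes were often high for others. Over the 12 arrays, after the mean of each group was taken off, the 276 pairs of the 24 genes had a median Pearson r of 0.34, and 37.7% were over 0.5. All pairs of the 9959 named genes had a median of 0.01, with 11.9% over 0.5. Each pair shares the same arrays and scaling. Set against the median of the other members, GAL3ST1, the sulfotransferase that makes sulfatide, followed most closely (r = 0.96), then MAL (0.94), SOX10 (0.89) and PLLP (0.87). The lowest values were those of NINJ2 (0.16), ENPP6, an enzyme of newly formed oligodendrocytes (0.11), GPR17 (0.08), CNP (0.05), BCAS1 (-0.15) and MBP (-0.40), whose value the normalization fixes.

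Among 9281 named genes outside the list, the ones most like each marker over the 12 arrays were chosen by the same r. For MYRF they were WDTC1 (0.96), KCTD9 (0.95), ATPAF2, GIPC1 and GHITM (0.92 each). For MAL they were CDC26 and PPIL3 (0.96 each), POPDC3 and SLC14A2 (0.92 each) and EMC8 (0.91). PLLP had ZDHHC24 (0.99), LGALS13 and ZCCHC24 (0.97 each), TBRG1 and SEC16B (0.96 each). ENPP2 had RNF130 (0.97), EVI2A (0.96), SPMIP7 (0.95), DAAM2 (0.94) and FRMD4B (0.93), and EVI2A is also one of the other oligodendrocyte genes. These are the highest of 9281 values from 12 arrays.

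Few of these genes followed the 3 arrays that stood apart. ASPA, aspartoacylase, which frees acetate for myelin lipid, measured 9.47, 9.43 and 9.30 on the first placebo, estrogen and estrogen plus progesterone arrays and between 8.51 and 9.05 on the other 9. It was the 1 gene of 24 above all others there, as 3.73% of all probe sets were, a share near that of the list. BCAS1 was lower on those arrays, from 9.96 to 10.28, against 10.21 to 11.37 on the rest.

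Where a gene had more than 1 tested probe set, the dimmer ones often gave another sign. For 11 genes with 13 further probe sets, 24 of 39 differences from placebo had the sign of the brightest. UGT8, ERBB3, a neuregulin receptor, and PLEKHB1 kept the sign in 3 of 3 comparisons, while 1 TSPAN2 probe set did so in 0 of 3 and MYRF in 1 of 3. For PLEKHB1 the difference of both hormones from placebo rounded to 0 on the dimmer probe set, where the brightest gave 0.07. A dim OLIG2 probe set (mean 6.45) gave 1.34, 1.53 and 0.74 for estrogen, both hormones and progesterone against placebo, with an SE of 0.88 each. It measured 2.73 on the first placebo array, against 6.58 and 7.32 on the other placebo arrays.

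Lists of related cells gave no calls either. Of the other oligodendrocyte genes 0 of 15 passed in any of the 6 comparisons, with 11 of 15 lower under estrogen than placebo (median -0.18), 12 of 15 higher under progesterone (0.12) and 13 of 15 lower under estrogen than progesterone (-0.22). Among 8 tested genes of precursors 0 passed; 7 were lower under estrogen than placebo, with a median of -0.06. Of the Schwann cell genes, which would mark peripheral nerve, 3 were tested and 0 passed, and PMP22, at a mean of 11.10, is also made in the brain.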

How the data were processed

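RNA of the dorsal raphe from 12 monkeys was measured on 1 array each, in 4 groups of 3 taken from the labels. The deposited unit is linear intensity, 1 value per probe set. From the values, the authors scaled every array to a trimmed mean of 200 (2% off each end), by software not given in the sources used here. Per the labels' protocols, RNA was extracted with Trizol, cleaned on RNeasy columns and labelled with an Enzo kit.

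Of 52865 probe sets, 99 controls were removed. Values were floored at the 5th percentile (intensity 4.99) and put on the log2 scale. Array medians ran from 6.15 to 6.62, so quantile normalization followed. The 26383 probe sets with a mean of at least 6.31 (intensity 79.5, the 50th percentile) were fitted with limma 3.58.1 in R 4.3.3, with 1 mean per group (8 residual and 3.54 prior degrees of freedom), and Benjamini-Hochberg adjustment over all of them at 0.05, two-sided. The steps were tested on simulated data. Figures were drawn with matplotlib 3.10.9. With 3 animals against 3, an exact permutation test cannot go below p = 0.1. Each gene stands on its brightest probe set; 24956 probe sets matched 1 symbol, 361 several and 27449 none. Of the member genes 25 were found by Entrez number in RefSeq, with the same symbol.

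Members and lists were chosen with earlier results of these data known. Array values are printed for MYRF, MAL, PLLP and ENPP2, the brightest gene of each role, and the lowest p in each direction of each comparison and in the F test; ASPA, TSPAN2 and further genes in counts of 5 or fewer were named after their values were seen. Lists of other cells are named in the report where used. Deviations of same-numbered arrays correlated by 0.103 to 0.274 between estrogen plus progesterone and placebo and by 0.142 to 0.507 between it and estrogen. All these pairs were over a limit of 0.1, so array numbers were taken, from the data alone, to pair those groups. Some differently numbered arrays of those groups were over it too. The second estrogen plus progesterone array had an r of 0.267 with the third estrogen array and 0.115 with the third placebo array. The other comparisons did not have all pairs over that limit, and their r ran from -0.26 to 0.277. Between all groups the median r was 0.027 for 18 same-numbered pairs and 0.012 for 36 other pairs. The pairing is therefore an assumption, and the fit reported has no block. Other settings tried were median alignment, the deposited scale (added after seeing the data), other filters and floors, the replicate block, array weights, covariates (the other oligodendrocyte genes, or the EF1A control's 3′ minus 5′ signal), other probe sets, and leaving out arrays.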

Additional observations from a re-analysis of the deposited data

Results flagged for a closer look

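For PLEKHB1, a membrane protein of myelin and photoreceptors, the 3 estrogen arrays measured 12.18, 12.11 and 12.05, all below the placebo mean of 12.23, and the 3 arrays with both hormones 12.40, 12.27 and 12.24, all above the progesterone mean of 12.10. The difference of the estrogen effect with and without progesterone was 0.32 ± 0.28 (SE; limma adjusted p = 0.8779), and did not pass. The first progesterone array, at 11.70, was the lowest of the 12. A slightly dimmer PLEKHB1 probe set (mean 12.14) measured 11.91, 12.17 and 12.06 under estrogen and 12.32, 12.27 and 12.02 under both hormones. Under progesterone it measured 11.81, 12.51 and 11.99. On that probe set the array at 12.02 lay below the progesterone mean, so not all arrays with both hormones were above it. The share of all probe sets with such a pattern is not given here.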

How the results depend on the processing

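Under each alternative that gives an adjusted p, 0 of the members tested were called in the 6 comparisons and the F test. This includes the replicate block, with medians of -0.21, -0.07 and -0.09 for estrogen, both hormones and progesterone against placebo; it changed no call. The number tested was 26 with no filter, which adds CNTF and GJC3, and 20 with one at the 75th percentile. Some values changed sign, and not only those close to 0. Of the recomputed values, 12 of 138 list medians, 4 of 36 array levels and 1 of 344 values of single genes had the other sign than reported. The level of the first estrogen plus progesterone array went from 0.14 to -0.03 under median alignment, and the median of estrogen against progesterone was -0.17 as reported. Of the medians and array levels, 4 moved by more than the SD within groups of 0.19. The median of estrogen against progesterone moved to 0.11 with the other oligodendrocyte genes as a covariate, a fit that also takes out what treatment did to them. The level of the third estrogen array moved to 0.29 and that of the third progesterone array to -0.51 under median alignment, and the latter to -0.25 on the deposited scale; the cause was not tested. BCAS1 in estrogen against placebo reversed to -0.03 without the first placebo array, and ran up to 0.57 as single arrays were left out. The medians of the list ran over single arrays left out from -0.24 to -0.10 for estrogen, -0.11 to 0.01 for both hormones and -0.23 to 0.04 for progesterone against placebo, and from 0.11 to 0.21, -0.07 to 0.17 and -0.31 to 0.01 in the other comparisons, in the order of the report. With the EF1A signal as a covariate NINJ2 differed by -0.81 between estrogen and progesterone (limma adjusted p = 0.3114; over all settings that give one, 0.1181 to 0.5089). Arrays give no read depth, and the number of animals limits the precision.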
